A study of Mus musculus with 12 samples.

Results

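The tubulin isotypes and microtubule-associated proteins described here are 10 genes that build or bind microtubules in the developing mouse neocortex. They comprise 1 alpha-tubulin gene (Tuba1a), 5 beta-tubulin genes (Tubb2a, Tubb2b, Tubb3, Tubb4a and Tubb5), 3 structural microtubule-associated proteins (Map1b, Map2 and Mapt) and Dcx. They were taken by symbol, 10 of the 46603 genes counted, and all 10 were counted in every library and passed the filter on low counts in every comparison. RNA came from microdissected neocortex on a C57Bl/6J background, from wildtype Chd8+/+ mice and from heterozygous Chd8+/- mice, at embryonic day 12.5 (E12.5, both hemispheres) and postnatal day 5 (P5, a single hemisphere), with n = 3 libraries in each of the 4 groups. The Chd8 null allele arose from germline deletion of floxed exon 3 by a ubiquitous β-actinCre, so that every cell of a heterozygote carries it. Chd8 encodes a chromatin remodelling factor, and the study asked how the loss of 1 copy alters gene expression at both stages.

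Microtubules are hollow polymers of alpha- and beta-tubulin heterodimers. Mammals carry several genes for each subunit, called isotypes, whose proteins differ most in the acidic tail at the carboxy end, which faces outward and binds motors and associated proteins. In the brain, Tuba1a, Tubb2b and Tubb3 serve newborn and migrating neurons, Tubb2a and Tubb4a are associated with later neurons and glia, and Tubb5 is also used by dividing cells. Map1b supports growing axons, Map2 marks dendrites, Mapt encodes tau, which lies along axons, and Dcx encodes doublecortin, which stabilizes microtubules in migrating neurons. Tubulin mRNAs are also subject to autoregulation, in which a factor that recognizes the opening residues of the nascent tubulin chain directs degradation of the mRNA.

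Several of these genes are so alike that the reads themselves limit what can be counted, so their coding ends are shown first. The first 30 coding bases begin with the codons of the autoregulation signal, in capitals, and come from the reference transcripts of the GENCODE annotation on GRCm38.
Tuba1a: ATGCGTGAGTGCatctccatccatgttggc
Tubb2a: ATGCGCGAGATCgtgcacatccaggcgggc
Tubb2b: ATGCGAGAGATCgtgcacattcaggcgggc
Tubb3: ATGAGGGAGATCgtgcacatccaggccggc
Tubb4a: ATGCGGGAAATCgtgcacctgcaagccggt
Tubb5: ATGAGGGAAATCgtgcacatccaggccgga

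The last 60 coding bases of the beta-tubulins encode the acidic tail, and the stop codon is in capitals.
Tubb2a: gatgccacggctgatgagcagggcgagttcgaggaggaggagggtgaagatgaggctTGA
Tubb2b: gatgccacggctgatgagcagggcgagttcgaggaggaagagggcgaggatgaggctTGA
Tubb3: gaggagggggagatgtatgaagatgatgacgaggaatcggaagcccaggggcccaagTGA
Tubb4a: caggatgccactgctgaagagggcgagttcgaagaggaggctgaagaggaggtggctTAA
Tubb5: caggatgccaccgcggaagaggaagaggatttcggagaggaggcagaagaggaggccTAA

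Over these 60 bases, compared position by position without gaps, Tubb2a and Tubb2b differed at 3 positions, whereas Tubb3 differed from the other 4 beta-tubulins at 33 to 35. The Tubb3 coding sequence is longer, at 1353 against 1335 or 1338 bases, so that its count includes bases out of register. Over the whole coding sequence, Tuba1a and its neighbour Tuba1b, another alpha-tubulin gene, were 98.3% identical, with 23 differing positions, and Tubb2a and Tubb2b 96.5%, with 47. The other pairs of the 5 beta-tubulins were 81.8% to 84.6% identical. The longest identical stretch of Tubb2a and Tubb2b is 551 bases (chr13:34074646-34075196, minus strand, in Tubb2a). Its first 75 bases are shown because any read lying inside them fits both genes.
Tubb2a and Tubb2b: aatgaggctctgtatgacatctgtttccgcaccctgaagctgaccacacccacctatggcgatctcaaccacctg

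Of all windows of 75 bases in the reference transcript, 68.2% of those of Tuba1a also occur in transcripts of 12 other genes, many of them pseudogenes. The share was 43.2% in Tubb2a and 32.2% in Tubb2b, in each case with 2 other genes. It was 0% in the other 7 members (Tubb3, Tubb4a, Tubb5, Map1b, Map2, Mapt and Dcx). By this measure, values of Tuba1a, Tubb2a and Tubb2b are open to an uncertainty that was not found for the other 7. Sequencing was paired-end, and whether a mate outside a shared window placed the pair was not tested.

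The genes lie on the following places of GRCm38. Tuba1a is at chr15:98949841-98953551, with Tuba1b close by at chr15:98931425-98934565, both on the minus strand. Tubb2a (chr13:34074301-34078008) and Tubb2b (chr13:34127008-34130354) are neighbours on the minus strand. Tubb3 is at chr8:123411424-123422015 on the plus strand, Tubb4a at chr17:57080066-57087782 and Tubb5 at chr17:35833921-35838306 on the minus strand. Map1b is at chr13:99421464-99516602 (minus strand), Map2 at chr1:66175273-66442583 (plus strand), Mapt at chr11:104231390-104332090 (plus strand) and Dcx at chrX:143855842-143933311 (minus strand). The exons of 9 members overlap no exon of another gene, and 124 exon bases of Map2, 0.754% of its exons, are shared with Gm10558.

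Each library held 38774591 to 54695236 counts. Chd8 itself checked the labels. It was at 228.6 to 235.5 CPM, the count scaled to library size, in Chd8+/+ and 161.1 to 167.3 CPM in Chd8+/- libraries at E12.5, and at 145.4 to 151 against 95.01 to 98.6 CPM at P5. Of the neocortical markers, Emx1 was at 35.22 to 53.82 CPM at E12.5 and 22.27 to 27.1 CPM at P5, Emx2 at 107.3 to 120.9 and 9.734 to 11.26 CPM, and Lhx2 at 351.8 to 456.6 and 77.36 to 91.1 CPM. Neurod6 went the other way, from 47.61 to 125.7 CPM up to 206.8 to 250.2 CPM. The labels do not say that the libraries of a group came from separate animals, so that p-values measure the spread between these libraries. CPM are scaled with TMM factors over all 12 libraries.

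The 10 genes together took 1.4% ± 0.0963 (SD, n = 6) of all counts at E12.5 and 2.29% ± 0.0518 (SD, n = 6) at P5. From E12.5 to P5, 9 of 10 members rose and Tubb5 fell, in Chd8+/+ and in Chd8+/- libraries alike. The rises ran from 1.25-fold in Dcx to 12.98-fold in Tubb2a in Chd8+/+. Across all genes, 83.1% were called in Chd8+/+, 41.4% higher and 41.7% lower at P5. In Chd8+/- the share was 82.9%, 41.3% higher and 41.6% lower. A call by stage is thus the usual case in these data, and what sets the members out of the whole table is described here by their direction and size, with no test. Their median log2 fold change was 0.74 in Chd8+/+ and 0.65 in Chd8+/-, beside medians of all genes of -0.02 and -0.0046. A fold change here is that of edgeR's model of all 12 libraries. In bulk tissue, more RNA of a gene per cell and more cells that express it cannot be told apart. Stage also cannot be told apart from the number of hemispheres taken or from the 2 deposited tables.

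**Figure D1:**
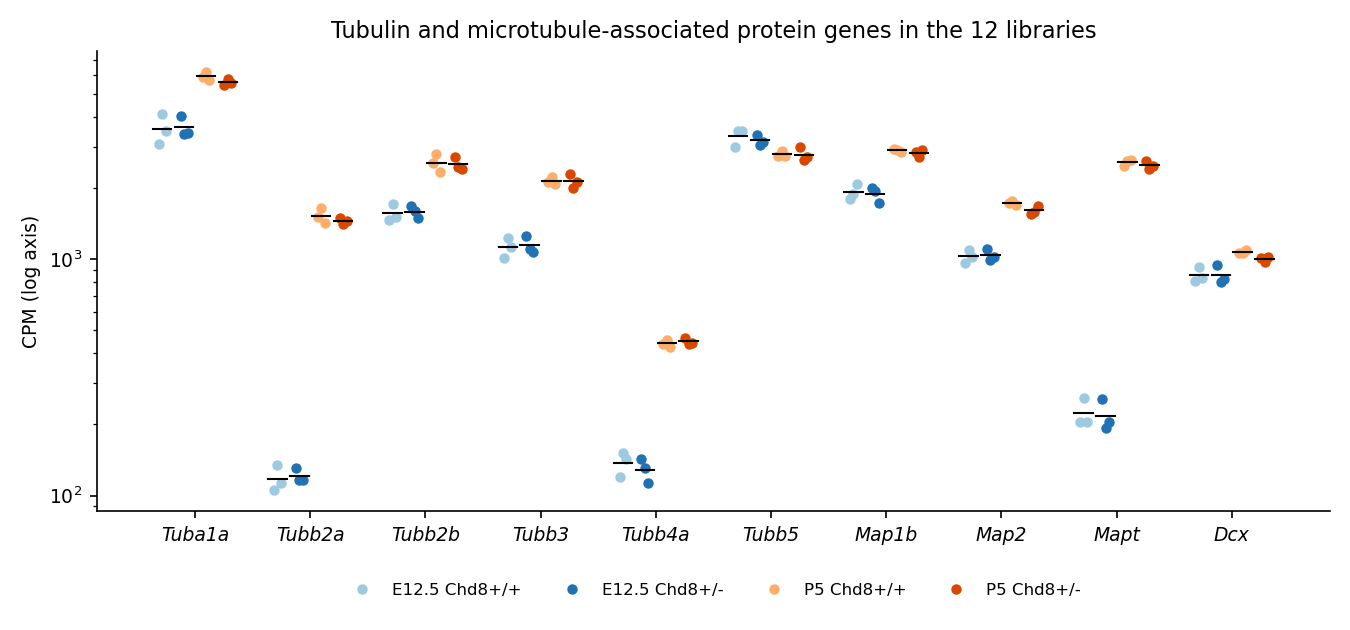
CPM (log axis) of the 10 genes in each of the 12 libraries, coloured by stage and genotype, with a bar at each group mean (n = 3). Tubb2a and Mapt are separated most by stage, Tubb5 is the one gene lower at P5, and the 2 genotypes of a stage lie side by side.

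Tuba1a, the main alpha-tubulin of the developing brain, was the most abundant member at both stages. In Chd8+/+ libraries at E12.5 it was at 3070, 4136 and 3506 CPM, and in Chd8+/- libraries at 4028, 3392 and 3423 CPM. At P5 it was at 5903, 6222 and 5727 CPM in Chd8+/+ and at 5464, 5792 and 5589 CPM in Chd8+/-. All 6 P5 libraries lay above all 6 E12.5 libraries, and the genotypes overlapped at both stages at this 12-library scaling. The log2 difference between stages was 0.74 (SE 0.093) in Chd8+/+ and 0.64 (SE 0.093) in Chd8+/-, 1.67-fold and 1.55-fold. The sum of Tuba1a and Tuba1b rose by 0.63 (SE 0.086) and 0.54 (SE 0.086), in the same direction as Tuba1a alone.

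Tubb2a had the largest fitted rise of the 10, which in Chd8+/- was close to that of Mapt. It was at 105.2, 135.1 and 112.8 CPM in Chd8+/+ and 130.4, 116.6 and 115.9 CPM in Chd8+/- at E12.5. At P5 the values were 1514, 1641 and 1430 CPM in Chd8+/+ and 1490, 1406 and 1451 CPM in Chd8+/-. The lowest P5 library was thus far above the highest E12.5 library, and the log2 difference was 3.70 (SE 0.093) in Chd8+/+ and 3.58 (SE 0.093) in Chd8+/-. In Chd8+/- the order of Tubb2a and Mapt turned without E12.5 Chd8+/- replicate 1 (3.65 against 3.66) and with offsets for gene length (3.33 against 3.35). In Chd8+/+ Tubb2a ranked 1119 from the top of 19676 genes tested.

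Its neighbour Tubb2b, the beta-tubulin of migrating neurons, rose far less. It was at 1466, 1709 and 1513 CPM in Chd8+/+ and 1680, 1594 and 1498 CPM in Chd8+/- at E12.5, and at 2552, 2795 and 2349 CPM and 2706, 2449 and 2418 CPM at P5. The stages did not overlap, with log2 differences of 0.715 (SE 0.077) and 0.67 (SE 0.077), about 1.64-fold and 1.59-fold. The summed pair rose by 1.28 (SE 0.075) and 1.22 (SE 0.075).

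Tubb3, the neuron-restricted beta-tubulin stained as TuJ1, was at 1011, 1233 and 1124 CPM in Chd8+/+ and 1260, 1106 and 1077 CPM in Chd8+/- at E12.5. It was at 2126, 2229 and 2079 CPM in Chd8+/+ and 2288, 2002 and 2124 CPM in Chd8+/- at P5. The log2 differences were 0.93 (SE 0.080) and 0.90 (SE 0.079), both close to a doubling in non-overlapping libraries. Tubb4a, which in the mature brain is most abundant in oligodendrocytes, was at 112.7 to 150.9 CPM over the 6 E12.5 libraries, with a median of 136.7, and at 427 to 463.4 CPM over the 6 P5 libraries, with a median of 442.1. It rose by 1.68 (SE 0.089) in Chd8+/+ and 1.80 (SE 0.089) in Chd8+/-. The summed CPM of 9 oligodendrocyte-lineage markers was 123.9 to 161 at E12.5 and 478.7 to 540.4 at P5, and their part in the rise of Tubb4a was not tested.

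Tubb5, the beta-tubulin shared with dividing cells, moved the other way. It was at 2977, 3496 and 3494 CPM in Chd8+/+ and 3354, 3051 and 3149 CPM in Chd8+/- at E12.5, and at 2741, 2875 and 2723 CPM and 2989, 2622 and 2713 CPM at P5. The P5 libraries were lower on average but the stages overlapped, since P5 Chd8+/- replicate 1 was above E12.5 Chd8+/+ replicate 1. The log2 difference was -0.26 (SE 0.070, edgeR adjusted p = 0.00345) in Chd8+/+ and -0.20 (SE 0.070, edgeR adjusted p = 0.0168) in Chd8+/-. Over all settings run it lay between -0.554 and -0.218 in Chd8+/+ and between -0.47 and -0.14 in Chd8+/-. The Chd8+/- call was lost with DESeq2 (adjusted p = 0.062), with RLE scaling (adjusted p = 0.0866) and with upper quartile scaling (adjusted p = 0.0703), where the direction stayed. It was also lost without E12.5 Chd8+/- replicate 1 (adjusted p = 0.111) or replicate 3 (0.0694) and without P5 Chd8+/- replicate 2 (0.0735) or replicate 3 (0.052).

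Among the structural microtubule-associated proteins, Mapt stood out. It was at 204, 259.3 and 204.9 CPM in Chd8+/+ and 255.9, 193.8 and 204.9 CPM in Chd8+/- at E12.5. It was at 2493, 2608 and 2622 CPM in Chd8+/+ and 2602, 2409 and 2482 CPM in Chd8+/- at P5. The log2 difference was 3.53 (SE 0.113) in Chd8+/+ and 3.52 (SE 0.113) in Chd8+/-, and in Chd8+/+ the gene ranked 1259 from the top of 19676. Unlike that of Tubb2a, the reference transcript of Mapt shares no window of 75 bases with another gene. That transcript has 1362 bases, against 7531 merged exon bases counted for the gene, and the rest was not searched.

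Map2 was at 968.5, 1096 and 1025 CPM in Chd8+/+ and 1101, 996.1 and 1021 CPM in Chd8+/- at E12.5. At P5 it was at 1729, 1758 and 1698 CPM in Chd8+/+ and 1560, 1581 and 1689 CPM in Chd8+/-. Its log2 stage difference was 0.75 (SE 0.059) and 0.63 (SE 0.058). Map1b was at 1736 to 2090 CPM over the 6 E12.5 libraries and at 2721 to 2917 CPM over the 6 P5 libraries, and rose by 0.59 (SE 0.065) and 0.57 (SE 0.065). The stages did not overlap in either gene.

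Dcx rose least. It was at 808.3, 927.8 and 835.7 CPM in Chd8+/+ and 949.6, 799.1 and 822.2 CPM in Chd8+/- at E12.5. The P5 values were 1062, 1062 and 1099 CPM in Chd8+/+ and 1015, 972.1 and 1022 CPM in Chd8+/-, again above every E12.5 library. The log2 difference was 0.33 (SE 0.068) in Chd8+/+ and 0.23 (SE 0.068, edgeR adjusted p = 0.00685) in Chd8+/-. With offsets for gene length, which moved the median of all genes to -0.241 and -0.202, it was 0.089 (edgeR adjusted p = 0.318) and 0.082 (adjusted p = 0.359), and the call was lost in both genotypes. Without E12.5 Chd8+/- replicate 2 the Chd8+/- call was lost too (adjusted p = 0.0531). Dcx is X-linked, and Xist was at 835 to 2009 CPM in a single library of each group and at most 2.2 CPM in the others.

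**Figure D2:**
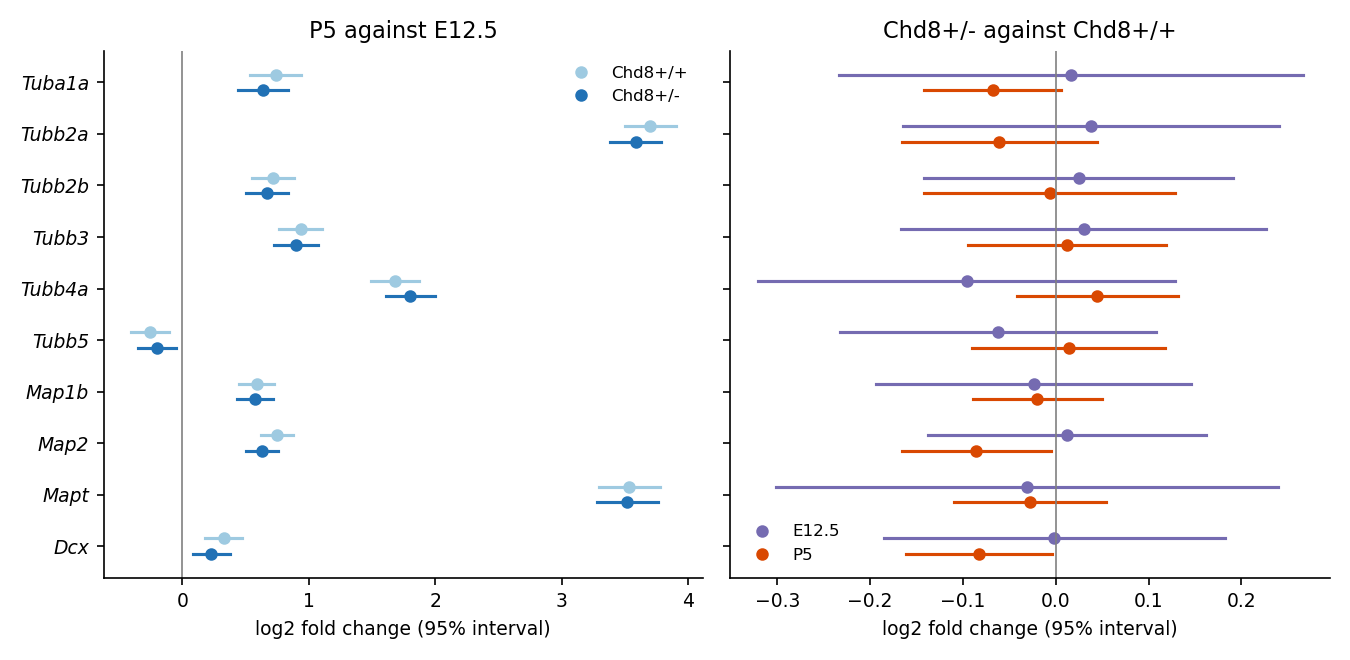
Log2 fold changes of the 10 genes with their 95% intervals from edgeR, P5 against E12.5 in each genotype (left) and Chd8+/- against Chd8+/+ at each stage (right). The left axis runs to about 4 and the right to about 0.3; by stage Tubb2a and Mapt exceed 3.5, whereas by genotype only the P5 intervals of Map2 and Dcx miss 0.

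Levels of different genes were compared as CPM per kilobase of merged exons. At E12.5, Tuba1a was highest at 2181 ± 248 (SD, n = 6), followed by Tubb5 at 978 ± 67.9, Tubb2b at 820.4 ± 52.5, Tubb3 at 607.7 ± 50.7 and Map1b at 161 ± 11.03, with no overlap between neighbours in this order. Tubb2a (75.3 ± 7.11), Dcx (67.8 ± 5.12), Map2 (62.9 ± 3.26) and Tubb4a (59.8 ± 6.65) followed, each overlapping the next. Mapt was lowest at 29.3 ± 3.86. At P5, Tuba1a remained highest at 3511 ± 160.7. Tubb2b (1324 ± 90.8) and Tubb3 (1146 ± 55.1) overlapped, as did Tubb2a (939.8 ± 53.1) and Tubb5 (834.7 ± 39.6). Mapt (336.7 ± 11.5) had moved above Map1b (240.7 ± 6.01), Tubb4a (199.6 ± 5.73), Map2 (101.5 ± 4.88) and Dcx (82.1 ± 3.53), none overlapping its neighbour. Tubb5 thus went from rank 2 to rank 5 and Mapt from rank 10 to rank 6. These ranks hold for merged exons only, and Tuba1a, Tubb2a and Tubb2b share windows with other genes, as given above. Mapt has 7531 merged bases against 1362 in its reference transcript, Map2 16449 against 6258, Dcx 12647 against 9074 and Tubb5 3327 against 2649. Division by the transcript would raise the levels of these genes, and most of all that of Mapt. The Mapt transcript, however, holds 1293 coding and only 69 untranslated bases. The length of the mRNA present was not determined. In Tuba1a (1647 against 1803), Tubb2a (1584 against 1610) and Tubb2b (1922 against 2182) the merged length is the shorter one. The order by transcript length was not computed.

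The make-up of the beta-tubulin pool was described by each isotype's share of the summed CPM per kilobase of the 5 genes. Division was by the full merged length. Of the transcript windows, 43.2% in Tubb2a and 32.2% in Tubb2b also occur in other genes, against 0% in Tubb3, Tubb4a and Tubb5. The part of this in the percentages was not tested. The largest opposite shifts in share were those of Tubb5 and Tubb2a. Shares sum to 100, and by level, as given above, Tubb2a, Tubb2b and Tubb3 rose far more than Tubb5 fell. Tubb5 held 38.6%, 38.2% and 40.8% in the Chd8+/+ and 37.3%, 37.1% and 39% in the Chd8+/- libraries at E12.5, but 18.5%, 18.2% and 19.3%, and 19.2%, 18.7% and 18.9% at P5. Tubb2a held 2.77% to 3.1% in the E12.5 libraries and 20.1% to 21.8% in the P5 libraries. No library of one stage came near the other in either isotype.

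By an exact two-sided permutation of stage labels within genotype (400 arrangements, smallest possible p 0.005), the share of Tubb2a was 18.2 percentage points higher at P5, that of Tubb5 19.7 lower, that of Tubb4a 2.15 higher (2.35% to 4.5%) and that of Tubb3 1.91 higher (23.9% to 25.8%), each with an adjusted p of 0.00625 over 5 shares, every one the smallest the permutations allow. The share of Tubb2b went from 32.3% to 29.8%, a difference of -2.53 points (exact permutation, adjusted p = 0.01). This was not stable, because without division by gene length its difference was 1.69 points in the other direction. The neighbouring genes Tubb2a and Tubb2b together went from 35.3% to 50.9% (exact permutation, p = 0.005). Between the genotypes, the shares differed by at most 1.37 points in size, in Tubb5 at E12.5 (exact permutation, p = 0.3), and 3 libraries against 3 cannot give an exact p below 0.1. That p was reached only by Tubb2a at P5, at 21.5%, 21.8% and 21.3% in Chd8+/+ and 20.1%, 21% and 21.2% in Chd8+/-, a difference of -0.753 points without overlap (exact permutation, p = 0.1, not adjusted over the 10 shares compared). In either run alone the genotypes overlapped, at 20.8% to 22% against 20.9% to 21.6% in run 1 and 20.4% to 22.4% against 18.8% to 21.1% in run 2, so that the separation is found in the sum of the runs only.

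**Figure D3:**
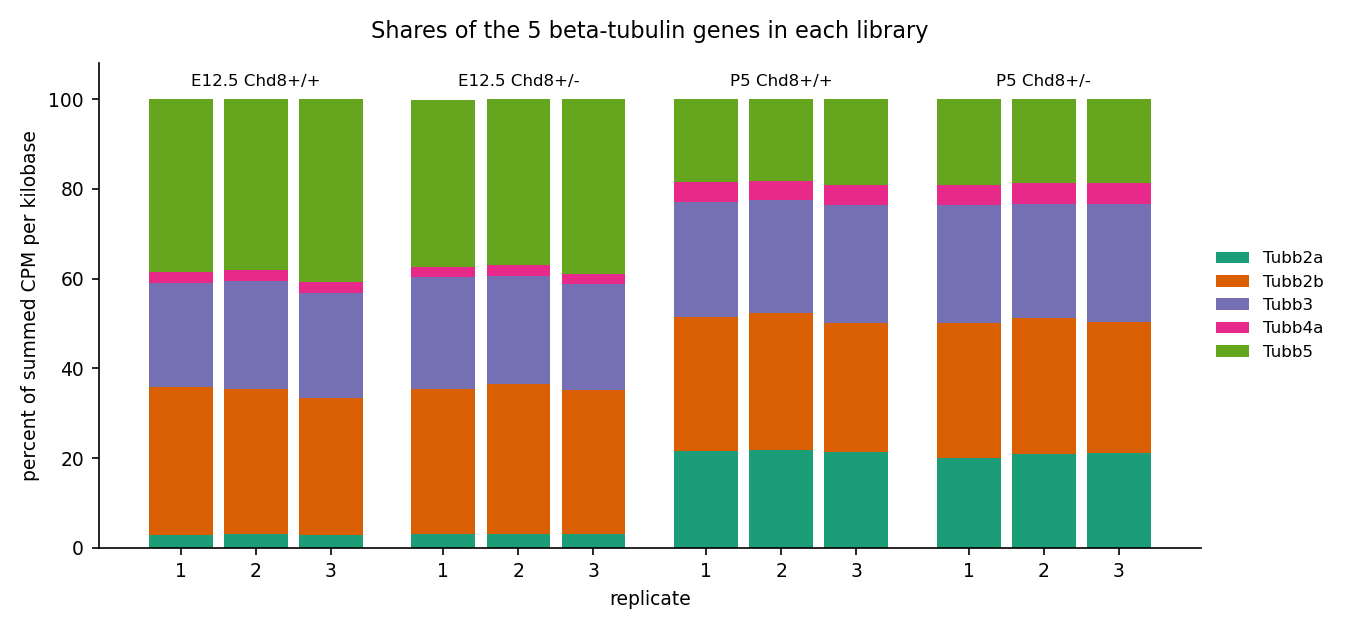
Share of each of the 5 beta-tubulin genes in their summed CPM per kilobase (percent, stacked to 100) in each of the 12 libraries. The Tubb5 block shrinks from about 37 to 41% at E12.5 to 18 to 19% at P5 while the Tubb2a block grows from about 3% to 20 to 22%.

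The 3 other beta-tubulin genes counted held small shares, but at E12.5 Tubb4b was above Tubb2a and Tubb4a. It was at 124.8 CPM per kilobase in Chd8+/+ and 125.5 in Chd8+/-, against 74.3 and 76.4 in Tubb2a and 61.7 and 57.8 in Tubb4a. Of the sum over 8 genes, Tubb4b, which many tissues use, held 4.19% to 4.91% at E12.5 and 2.4% to 2.56% at P5, Tubb6 under 0.6% and Tubb1, the platelet isotype, under 0.1% in every library.

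RefSeq sequences on GRCm38.p6 gave the 250 bases before the start of 8 members (none for Tubb2b and Mapt). Those of the 2 isotypes with the largest opposite shifts in share are shown, with matches to the TATA box (TATAAA), the Sp1 box (GGGCGG) and the CCAAT box (CCAAT) in capitals, each searched on both strands and together with an E-box (CAGCTG).
Tubb2a (chr13:34078009-34078258, minus strand): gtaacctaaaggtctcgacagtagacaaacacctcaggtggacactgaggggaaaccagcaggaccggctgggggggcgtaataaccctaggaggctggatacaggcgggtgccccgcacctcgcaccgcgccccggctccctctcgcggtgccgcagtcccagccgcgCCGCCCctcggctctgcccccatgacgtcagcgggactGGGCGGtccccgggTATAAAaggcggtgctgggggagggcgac
Tubb5 (chr17:35838302-35838551, minus strand): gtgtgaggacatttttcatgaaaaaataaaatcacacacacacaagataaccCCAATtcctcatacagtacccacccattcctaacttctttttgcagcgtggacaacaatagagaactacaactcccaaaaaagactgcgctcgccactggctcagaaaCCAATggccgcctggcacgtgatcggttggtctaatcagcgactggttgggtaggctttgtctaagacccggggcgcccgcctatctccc

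The Tubb2a window holds 1 TATA box and 2 Sp1 boxes and is 68.4% G+C. The Tubb5 window holds 2 CCAAT boxes, no match to the other 3 motifs, and is 49.2% G+C, beside a median of 52.4% over all promoters. Of 32851 promoter windows of the same length, 12.4% hold the TATA box, 32.7% the Sp1 box, 33.8% the CCAAT box and 13% the E-box. These are descriptions of letters and not of bound sites.

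No member was called between Chd8+/- and Chd8+/+ at E12.5 or P5 by edgeR's quasi-likelihood test. At E12.5, the log2 differences of Chd8+/- against Chd8+/+ ran from -0.10 in Tubb4a (SE 0.10) to 0.04 in Tubb2a (SE 0.090). With 1 library left out, that of Tubb4a ranged from -0.19 to -0.0089 and that of Tubb5 from -0.14 to -0.018. None of the 10 was at an unadjusted p under 0.05 and DESeq2 called none. Among all 18081 genes, edgeR called 0.00553%, Chd8 alone (-0.51, SE 0.039, edgeR adjusted p = 0.00563), and 5.15% were at an unadjusted p under 0.05. DESeq2 called 0.0374% of the 13360 genes to which it gave an adjusted p. The 95% intervals of the members lay between -0.321 (Tubb4a) and 0.266 (Tuba1a), so that changes beyond that size are outside them.

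At P5, the log2 differences ran from -0.09 in Map2 to 0.04 in Tubb4a. None of the 10 passed edgeR's or DESeq2's adjusted threshold. Map2 (-0.09, SE 0.036, edgeR adjusted p = 0.255) and Dcx (-0.08, SE 0.036, edgeR adjusted p = 0.265) were at an unadjusted p under 0.05 by edgeR, and in both all 3 Chd8+/- libraries lay below all 3 Chd8+/+ libraries. These 2 of 10 compare with 17.8% of all genes at an unadjusted p under 0.05 and 23.4% of all genes with genotypes that do not overlap, so that the members are near the background. Marker sums of 5 of the 14 lists lay the same way at P5 without overlap. Those of the other lists overlapped between the genotypes. The neuron sum was 4046 to 4172 CPM in Chd8+/- and 4120 to 4195 CPM in Chd8+/+, and the neural progenitor sum 268 to 295.3 and 285 to 319.8 CPM. In Chd8+/- against Chd8+/+ libraries, the sum of 6 striatal medium spiny neuron markers was 197.8 to 242.5 against 266.7 to 290.4 CPM, that of 5 choroid plexus markers 320.4 to 378.9 against 439.8 to 571.5 CPM and that of 6 GABAergic interneuron markers 366 to 441.2 against 458.3 to 476 CPM. The sum of 5 endothelial markers was 161.1 to 186.6 against 188.2 to 210.2 CPM and that of 4 intermediate progenitor markers 14.3 to 15.19 against 16.62 to 18.7 CPM. Single genes of these 5 lists, such as Lhx6 and Cldn5, did overlap. None of the genes of these 5 lists was called by edgeR at P5, where Chd8 alone was called over all genes. Of the 5 lists only Neurog1, an intermediate progenitor marker, was at 0 in a library. The part of these lists in the values of Map2 and Dcx was not tested. With scaling within the stage only Dcx did not overlap. Offsets for gene length brought Map2 to -0.00075 and Dcx to -0.0068. At E12.5, 11.4% of all genes and 0 of 10 members did not overlap. Over all genes at P5, edgeR called 0.00536%, again Chd8 alone (-0.61, SE 0.034, edgeR adjusted p = 7.21e-05). DESeq2 called 5.28% of the 12362 genes to which it gave an adjusted p. The intervals of the members at P5 lay between -0.166 (Map2) and 0.132 (Tubb4a).

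The test of the difference between the stages in the genotype effect called 0 of 10 members and 0% of 19676 genes by edgeR, with 1972 genes at an unadjusted p under 0.05, none of them a member, and 8 genes called by DESeq2, none of them a member. The member values ran from -0.12 in Tubb2a (SE 0.12) to 0.12 in Tubb4a (SE 0.12).

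The 2 sequencing runs of a library measure the same material, and 7 members gave nearly the same value in both. In Tubb3, Tubb4a, Tubb5, Map1b, Map2, Mapt and Dcx the run 2 to run 1 ratio of CPM lay between 0.967 and 1.043 in all 12 libraries. The other members, Tuba1a, Tubb2a and Tubb2b, were less alike. Tubb2a differed between runs at P5 but not at E12.5, where its ratio was 0.979 to 1.044. At P5 the ratio of Tubb2b was 0.802, 0.794 and 0.905 in the Chd8+/+ and 1.22, 0.985 and 0.983 in the Chd8+/- libraries. That of Tuba1a was 1.19, 1.06 and 1.00 in Chd8+/+ and 1.11, 1.09 and 1.06 in Chd8+/-. That of Tubb2a ran from 0.869 to 1.01. Ranked by the mean chi-squared of the run difference, Tubb2b was 2, Tuba1a 3 and Tubb2a 5 of 18687 genes at P5, and Tuba1b, with ratios of 0.547 to 0.706, was 1. At E12.5 Tubb2b was 3, Tuba1a 6 and Tubb2a 6611 of 17984.

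The members that disagreed between runs are the ones whose reference transcripts share windows of 75 bases with other genes. There were exceptions: Tubb2a at E12.5 did not stand out, and Tubb4b, with 37.8% of its windows shared, had ratios of 0.98 to 1.06 at P5. The sum of Tubb2a and Tubb2b had ratios of 0.853 to 1.11 at P5. The cause was not tested.

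For the genotype comparison at P5, the sign of Tubb2b differed between the runs. Its log2 difference was -0.17 (SE 0.067, edgeR adjusted p = 0.229) in run 1 alone, 0.19 (SE 0.078, edgeR adjusted p = 0.243) in run 2 alone and -0.0067 in the sum. The stage differences kept their direction in either run. In Chd8+/+ Tubb2b rose by 0.82 in run 1 and 0.60 in run 2, Tuba1a by 0.67 and 0.82, and Tubb2a by 3.75 and 3.65. Tuba1b, by contrast, went from 0.02 (edgeR adjusted p = 0.814) in run 1 alone to -0.61 (edgeR adjusted p = 3.29e-05) in run 2 alone.

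**Figure D4:**
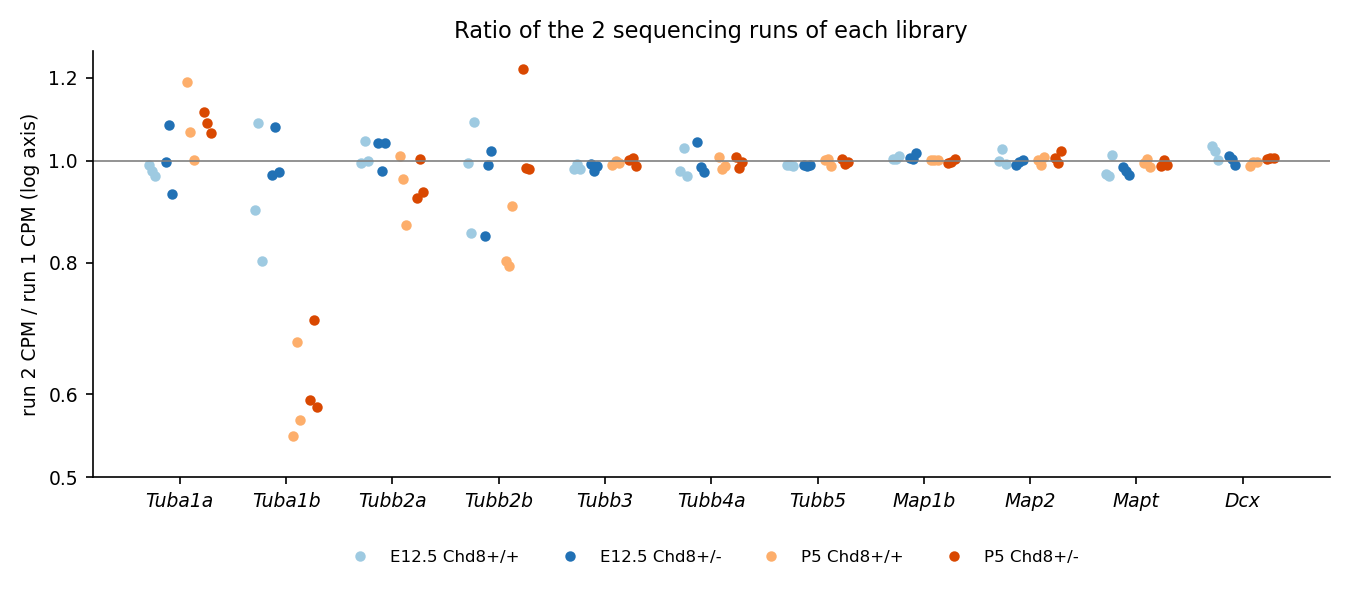
Ratio of run 2 to run 1 CPM (log axis) of the 10 genes and Tuba1b in each of the 12 libraries, coloured by stage and genotype. The line marks 1. Tuba1b at P5 lies between 0.547 and 0.706 and Tubb2b at P5 between 0.794 and 1.22. The members with no shared window in their reference transcripts stay near 1.

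Within E12.5 the members moved together from library to library. Of the Chd8+/+ libraries, replicate 1 was lowest in 10 of 10 members and replicate 2 highest in 9 of 10, the exception being Map1b. Of the Chd8+/- libraries, replicate 1 was highest in 10 of 10. The median member stood at 90.8%, 109.5% and 98.9% of its group mean in the Chd8+/+ libraries and at 108.8%, 96.1% and 94.4% in the Chd8+/- libraries. The summed CPM of 10 neuron markers that include no member was 1141, 1297 and 1206, and 1337, 1241 and 1170, in the same libraries, and that of 5 meningeal fibroblast markers was 759.6, 594.6 and 682.7, and 494.3, 1037 and 658.6. The sum of 5 erythrocyte markers was 1455, 1229 and 1481, and 1154, 1830 and 1521. The libraries with the highest member levels thus had the highest neuron and the lowest fibroblast and erythrocyte marker sums of their group, and the part of these in the member levels was not tested. The coefficient of variation of the members had a median of 9.43% in Chd8+/+ and 7.98% in Chd8+/- at E12.5, beside 4.88% and 4.09% over all genes at 10 CPM or more. At P5 it was 3.07% and 3.53%, beside 3.51% and 3.99%.

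From E12.5 to P5, the neuron marker sum went from 1141 to 1337 up to 4046 to 4195 CPM, and the sum of 8 neural progenitor markers from 4098 to 4402 down to 268 to 320 CPM. Of the neuron markers 8 of 10 rose and 2 fell, and all 8 progenitor markers fell, in both genotypes. The sum of 5 astrocyte markers went from 112.1 to 155.7 up to 961.3 to 1092 CPM, that of the striatal markers from 14.05 to 16.78 up to 197.8 to 290.4 CPM, that of the choroid plexus markers from 43.82 to 102.4 up to 320.4 to 571.5 CPM and that of 5 microglia markers from 23.43 to 27.57 up to 84.59 to 114.5 CPM. The erythrocyte sum went from 1154 to 1830 down to 80.59 to 107.8 CPM. The part of these shifts in the stage differences of the members was not tested.

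The other genes of the microtubule system were taken from 12 lists of 101 genes. By stage in Chd8+/+, 56 of 98 tested rose, 35 fell and 7 were not called, beside the 83.1% called of all genes. In Chd8+/- the counts were 54, 35 and 9. Tuba3a, Tuba3b and Tubal3 had at most 4 counts in any library and were not tested.

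Among other alpha-tubulins, 2 of 4 rose and 2 fell. Tuba4a, an isotype of mature neurons, rose by 4.45 (SE 0.073), from a mean of 6.21 to 136.2 CPM in Chd8+/+. Tuba8 rose by 1.73 (SE 0.44) at very low levels, from 0.226 to 0.757 CPM. Tuba1c, in contrast, had a log2 difference of -3.45 (SE 0.072), from 55.8 to 5.08 CPM, and Tuba1b one of -0.24, a call that was lost in run 1 alone (0.02, edgeR adjusted p = 0.814). All 3 other beta-tubulins were called lower, with log2 differences of -5.17 (SE 0.37) in Tubb1, which was at 2.37 CPM at E12.5, -1.06 in Tubb6 and -0.15 in Tubb4b. The call of Tubb4b was lost with DESeq2 in Chd8+/+ (adjusted p = 0.0984) and in Chd8+/- (adjusted p = 0.0792). The gamma-, delta- and epsilon-tubulins nucleate microtubules or build centrioles, and 1 of 4 rose and 3 fell. Tubg2 rose by 2.91 (SE 0.096), and the differences were -1.94 in Tube1 and -0.84 in Tubg1. Of 6 folding cofactors, which assemble the tubulin dimer, 3 rose and 3 were not called, the largest being Tbcb at 0.61 and Tbcd at 0.24.

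Of 13 other structural microtubule-associated proteins, 10 rose, 2 fell and 1 was not called, with a median of 1.52. Map6d1 rose by 2.73, and Map1a, the late relative of Map1b, rose by 2.35, from 123.1 to 625.6 CPM, while the differences were -2.89 in Map7d3 and -0.58 in Map10. All 4 stathmins, which sequester tubulin dimers, rose, with a median of 2.38, led by Stmn2 at 2.76 and Stmn4 at 2.44. Of 13 end-binding proteins 8 rose and 4 fell, with Mapre2 (2.04) and Clip2 (1.48) up most and Ckap5 (-1.15) and Clasp1 (-0.90) down most.

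Of 8 severing proteins, which cut microtubules, 6 fell and 2 rose, with Fignl1 (-4.14) and Fign (-2.55) down most and Katnal1 (0.18) among the rises. Of 19 tubulin-modifying enzymes 12 rose and 5 fell, with Ttll6 (2.32) and Ttll11 (2.26), both polyglutamylases, at one end and Ttll4 (-2.14) and Agbl5 (-0.84) at the other. The level of Ttll6 was low, at a mean of 0.27 CPM at E12.5 and 1.37 CPM at P5 in Chd8+/+. Of 7 dynein genes and regulators 6 rose and 1 fell. Dync1i1, the neuronal intermediate chain, rose by 6.19 (SE 0.11), from 2.66 to 191.8 CPM, the largest rise of the 98. Dctn1 rose by 1.13, whereas Nde1, which acts in dividing progenitors, was at -3.30. Of 10 transport kinesins 8 rose, Kif5a (2.71) and Kif1a (2.20) most, and Kif21a (-1.01) and Kif5b (-0.67) fell. All 7 mitotic spindle proteins fell, with a median of -4.2, Kif15 (-4.67) and Kif2c (-4.28) most. The spindle genes fell together with the progenitor marker sum given above, and the part of that sum in their fall was not tested.

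**Figure D5:**
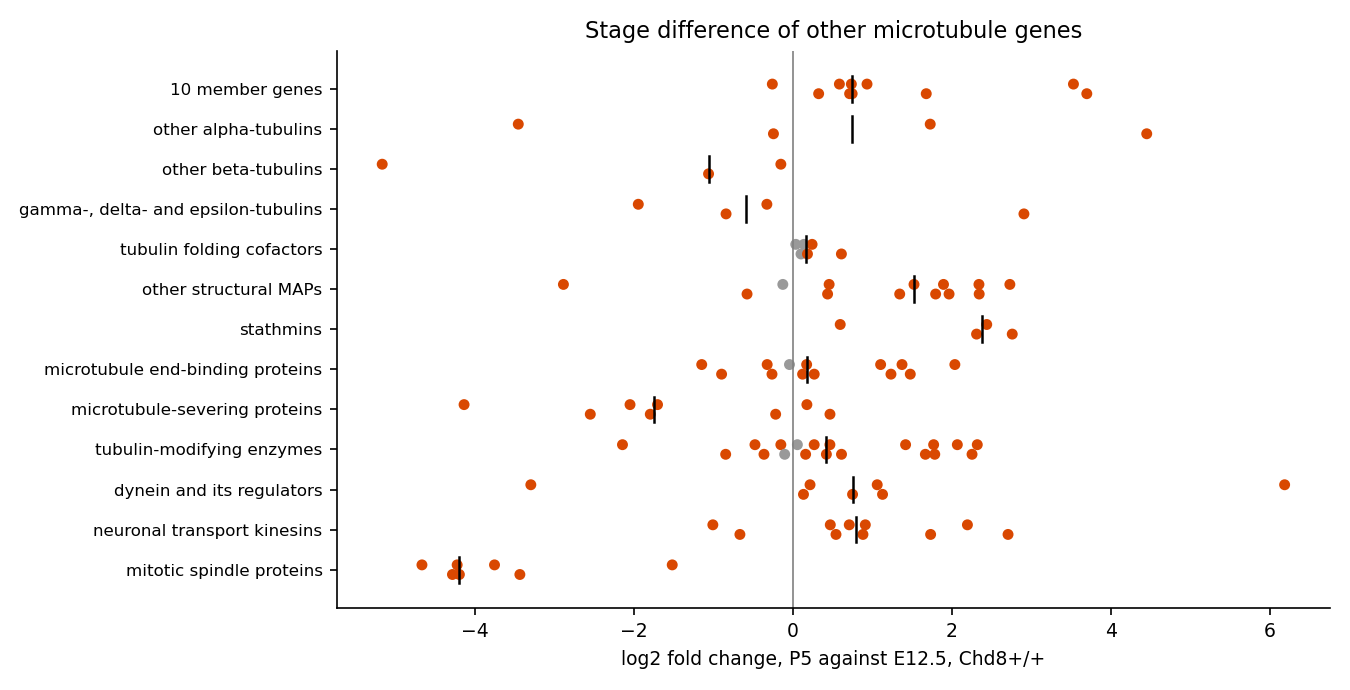
Log2 fold changes of P5 against E12.5 in Chd8+/+ of the 10 genes and of the 98 other microtubule genes tested, 1 point a gene, by list, with a bar at the list's median. Points in grey were not called; all 7 mitotic spindle genes and all 3 other beta-tubulins are below 0, and all 4 stathmins above 0.

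By genotype, edgeR called none of the 97 list genes tested at E12.5, 5 of them (5.15%) were at an unadjusted p under 0.05, the same share as of all genes (5.15%), and DESeq2 called none. The smallest edgeR p belonged to Spast (0.12, adjusted p = 0.942), a severing protein, Ttll4 (-0.12) and Camsap3 (-0.15), which binds minus ends. At P5 edgeR called none of 97, with 20 (20.6%) at an unadjusted p under 0.05 beside 17.8% of all genes. DESeq2 called 5 of 90, or 5.56%, near the 5.28% of the 12362 genes to which it gave an adjusted p. These were Ckap5 (-0.20, SE 0.042), a microtubule polymerase, Clasp2 (-0.16, SE 0.040), Kif1b (-0.12, SE 0.034) and Tuba1b (-0.24, SE 0.074) lower and Stmn3 (0.18, SE 0.065) higher in Chd8+/-, with edgeR adjusted p from 0.103 to 0.200. Ckap5 was at 232.7, 246.8 and 223.2 CPM in Chd8+/+ and 198.1, 204.6 and 204 CPM in Chd8+/-, and Clasp2 at 448.5, 453.7 and 446.8 against 377.6, 401.4 and 413.3 CPM. Kif1b was at 910, 926.5 and 915.1 against 804.3, 850.7 and 841 CPM and Tuba1b at 480.2, 550.9 and 503.8 against 453.3, 377.3 and 457.6 CPM. These 4 did not overlap, as was so for 23.4% of all genes. In run 2 alone, scaled to the counts of the run, the genotypes did overlap in Tuba1b. It was there at 330.3, 424.4 and 357.3 CPM in Chd8+/+ and 333.3, 311.1 and 326.5 CPM in Chd8+/-. Stmn3 did overlap, at 551.1, 569.4 and 533.9 CPM in Chd8+/+ and 678.1, 551.7 and 622.4 CPM in Chd8+/-. Tuba1b is the gene that ranked 1 by the chi-squared of the run difference at P5. Ttll9 (0.50, SE 0.13) was the third smallest by edgeR (adjusted p = 0.116). In the interaction with stage edgeR called none of 98, 12 of them (12.2%) were at an unadjusted p under 0.05, beside 1972 of 19676 genes, and DESeq2 called none, with Spast (-0.21), Map10 (-0.43) and Kif21a (-0.24) at the smallest p (edgeR adjusted p = 0.362 each).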

How the data were processed

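Raw counts of each gene in each of 2 sequencing runs per library were deposited by the authors for 12 neocortex libraries, 3 per genotype and stage. The authors trimmed reads with Trim Galore 0.4.1, checked them with FastQC 0.11.2, aligned them to GRCm38.p4 with TopHat2 2.1.0 and counted them with featureCounts 1.5.0, per the paper's methods and the submitters' processing notes. The recorded P5 counting command sets no strand and no option for reads that map to several places, on an Ensembl 82 annotation; the E12.5 command is not given in the sources used here. Gene lengths, deposited beside the counts by the authors, are merged exon bases (unit: bases).

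Runs were summed per library. No columns were left unused (0). Each genotype comparison was fitted on the 6 libraries of its stage, and stage and interaction on all 12, with edgeR 4.0.16 under R 4.3.3 (TMM, filterByExpr, quasi-likelihood test, Benjamini-Hochberg adjustment, threshold 0.05). The code was tested on simulated data. Shares were tested by exact permutation. Alternatives were DESeq2 1.42.0, limma-voom (limma 3.58.1), RLE and upper quartile scaling, all genes with at least 1 count, loess offsets for gene length (span 0.5), a replicate block, other sets of libraries, and each library left out. Single runs and summed paralogs were added after seeing the data. Intervals are at 95%. Depth was 38774591 to 54695236 counts a library, and precision is set by the spread between libraries rather than by counting.

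Sequences of transcripts came from the GENCODE annotation of GRCm38 and promoters from RefSeq on GRCm38.p6. Figures come from matplotlib 3.10.9 and tables from pandas 2.3.3 (Python 3.11.15). The 10 members and the lists were chosen with earlier results of these data known. Named were all members, Chd8, and of the lists, in genotype comparisons, each gene called by edgeR or DESeq2 and the 3 smallest edgeR p, and by stage the 2 largest called rises and falls of each list. Tuba1b, Tubb4b, Tubb1 and Tubb6 are also given where shares or shared sequence call for them. The 14 marker lists held neocortex, neuron, 2 progenitor, glial, vascular, blood, meningeal and other classes. A few named genes and sequences are not reported here.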

Additional observations from a re-analysis of the deposited data

How the results depend on the processing

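No member was called by genotype, or in the interaction with stage, under any alternative run. By stage, 9 of 10 in Chd8+/+ and 8 of 10 in Chd8+/- kept their calls under all of them, the exceptions being Dcx in both and Tubb5 in Chd8+/-, with the values given above. Of 940 single-gene values, 869 kept direction and side of the threshold, 10 lost the call and 61 changed sign, none of the last by stage. The number of genes called over the whole table was not stable by genotype. At E12.5 it was 1 and became 5 with DESeq2, 13 with all genes of at least 1 count, 2 with all 12 libraries in 1 model, and 0 to 2 with a library left out. At P5 it was 1 and became 653 with DESeq2, 995 with all genes, 4 with 12 libraries, 4 in run 1 alone, and 1 to 327 with a library left out, the 327 without P5 Chd8+/- replicate 2. For the interaction it was 0 and became 8 with DESeq2, 17 with all genes, and 0 to 2 with a library left out. The cause was not tested. With a replicate block the counts were 0 at E12.5 and 4 at P5. The replicate numbers do not pair the libraries (correlations of deviations -0.546, -0.132 and -0.44 at E12.5 and 0.394, 0.0219 and -0.0695 at P5), and no library of either stage was paired by label.

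The genotype and interaction differences that changed sign were called in no setting. At E12.5, Dcx was 0.0023 with upper quartile scaling, 0.00032 with offsets for gene length and 0.0097 in run 1 alone. At P5, offsets for gene length gave -0.017 for Tubb3, 0.053 for Map1b and 0.022 for Mapt, 12 libraries gave -0.0046 for Tubb3 and -0.0023 for Tubb5, and run 2 alone gave 0.19 for Tubb2b. In the interaction, Map1b and Mapt were both 0.0085 with upper quartile scaling, 0.077 and 0.055 with offsets for gene length, and 0.015 and 0.0077 in run 1 alone, and Tubb2b was 0.16 in run 2 alone. With 1 library left out, the E12.5 differences ranged from -0.086 to 0.14 in Tuba1a, -0.041 to 0.15 in Tubb2a, -0.024 to 0.099 in Tubb2b, -0.044 to 0.11 in Tubb3, -0.074 to 0.038 in Map1b, -0.034 to 0.065 in Map2, -0.16 to 0.098 in Mapt and -0.081 to 0.064 in Dcx. Those at P5 ranged from -0.06 to 0.059 in Tubb2b, -0.04 to 0.058 in Tubb3, -0.044 to 0.054 in Tubb5 and -0.031 to 0.006 in Map1b. The interaction ranged from -0.21 to 0.028 in Tuba1a, -0.11 to 0.028 in Tubb2b, -0.094 to 0.066 in Tubb3, -0.066 to 0.065 in Map1b, -0.13 to 0.14 in Mapt and -0.15 to 0.0047 in Dcx. The share of Tubb2b differed by 1.69 points without division by gene length and by -2.39 points in run 1 alone (exact permutation, adjusted p = 0.05), which missed the threshold.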

Other observations

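The run difference seen in Tuba1a and Tubb2b at both stages, and in Tubb2a at P5, was compared with that of other genes by its chi-squared, which grows with the counts and does not measure the size of the ratio. At E12.5, 26 of 17984 genes, and at P5, 18 of 18687 genes, had a mean chi-squared above 10 between the 2 runs of a library. Ranked ahead of or beside the tubulins at E12.5 were the alpha-globin genes Hba-a1 (run 2 to run 1 ratio 0.235 to 2.96) and Hba-a2 (0.868 to 4.64) and the polyubiquitin gene Ubb (0.779 to 1.04). At P5 Gm1821 (0.477 to 1.99) ranked 4, among the tubulins. Behind them, Gm5526 ranked 9, with a ratio from 0.0444 to 66.3, far wider than in the tubulins, and Gapdh (0.912 to 0.943) ranked 10. These genes were chosen after their values were seen.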
